A study of Mus musculus with 2 samples.

Results

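The enterocyte gene set described here comprised 42 genes of intestinal absorption and the brush border. It was a chosen list, drawn up with earlier results of these arrays known, and held brush border enzymes, nutrient transporters, lipid-handling proteins, microvillus proteins, intestinal transcription factors and a few secreted or ion-handling proteins. All 42 genes were found, each on a single probe set of 14 to 64 probes, among the 30941 genes named on the arrays. Levels of the same genes had been seen when the set was chosen, so every value below is a description of these 2 arrays and none was tested.

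The study profiled 2 stomachs on Affymetrix arrays, 1 per genotype, from mice 12 weeks old. The MIST1-LSL mouse carried Atp4bCre together with MIST1-LSL, an allele that expresses the transcription factor MIST1 once Cre has removed a stop cassette. The control mouse carried Atp4bCre alone, so Cre expressed from the promoter of the proton pump beta subunit, which is active in parietal cells, was common to both. Both mice were of a mixed strain background backcrossed to C57/B6. The labels call the tissue corpus, whereas the design text states that the stomach was used whole. In the free-text description of the MIST1-LSL sample the word control also appears, while its title and genotype name MIST1. Bhlha15, the gene of MIST1, read 5.30 on the array labelled MIST1-LSL and 5.26 on the control array (log2), a difference of 0.04, so its probe set did not bear out the label. Which part of the transcript that probe set covers is not given. The stomach labelled MIST1-LSL is called by that label below. With 1 array per genotype, variation between mice was not measured, no p-value was computed, and the number of arrays limits the precision.

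Enterocytes are the absorptive cells of the intestine. Their apical surface is a brush border of packed microvilli, held up by actin-bundling proteins and bridged by protocadherins, and carrying enzymes that complete the digestion of sugars and peptides. Transporters in that membrane take up hexoses, amino acids, peptides and sterols, while absorbed fatty acids are re-esterified and exported in chylomicrons. The adult corpus normally holds few such cells. The duodenum begins directly beyond the pylorus, and several of these genes are also used by other epithelia, by liver and by kidney.

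Levels are given on the log2 scale of the deposited RMA values, where a difference of 1 is a 2-fold difference, and differences are MIST1-LSL minus control. A level floor of 4.62, the median of all probe-set values, served to mark signals that may be background, because detection calls were not used here. A 2-fold difference with at least 1 array at or above the floor was taken as the size rule. Of the 17352 genes above the floor on at least 1 array, 0.968% lay 2-fold or more above control and 0.473% 2-fold or more below it, and the middle 95% of differences ran from -0.63 to 0.68.

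A small group of enterocyte genes stood higher in the MIST1-LSL stomach while most of the set did not. At least 2-fold higher were S100g, an intracellular calcium-binding protein, Cdhr5, a microvillus protocadherin, the intestinal alkaline phosphatases Akp3 and Alpi, the guanylate cyclase ligands Guca2a and Guca2b, and the sodium-glucose cotransporter Slc5a1. These were 7 of the 31 members above the floor on at least 1 array, and no member was at least 2-fold lower. All 42 members, measured without regard to the floor, had a median difference of 0.03, with 21 above 0, 19 below 0 and 2 at exactly 0, against a median of -0.00022 over all 30941 genes. A member that passes the floor only on the array where it is higher must differ, and 8 of the 31 did so through the MIST1-LSL array alone and 2 through the control array alone. Among the 21 members above the floor on both arrays 5 were at least 2-fold higher and none lower, where 0.671% and 0.25% of 15190 genes were, and their median was -0.02. The remaining 11 members were below the floor on both arrays. On the same array 18 of the 20 pancreatic acinar genes measured, 7 of 10 smooth muscle genes and 2 of 10 Paneth cell genes were at least 2-fold higher, and their part in the enterocyte differences was not tested.

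**Figure D1:**
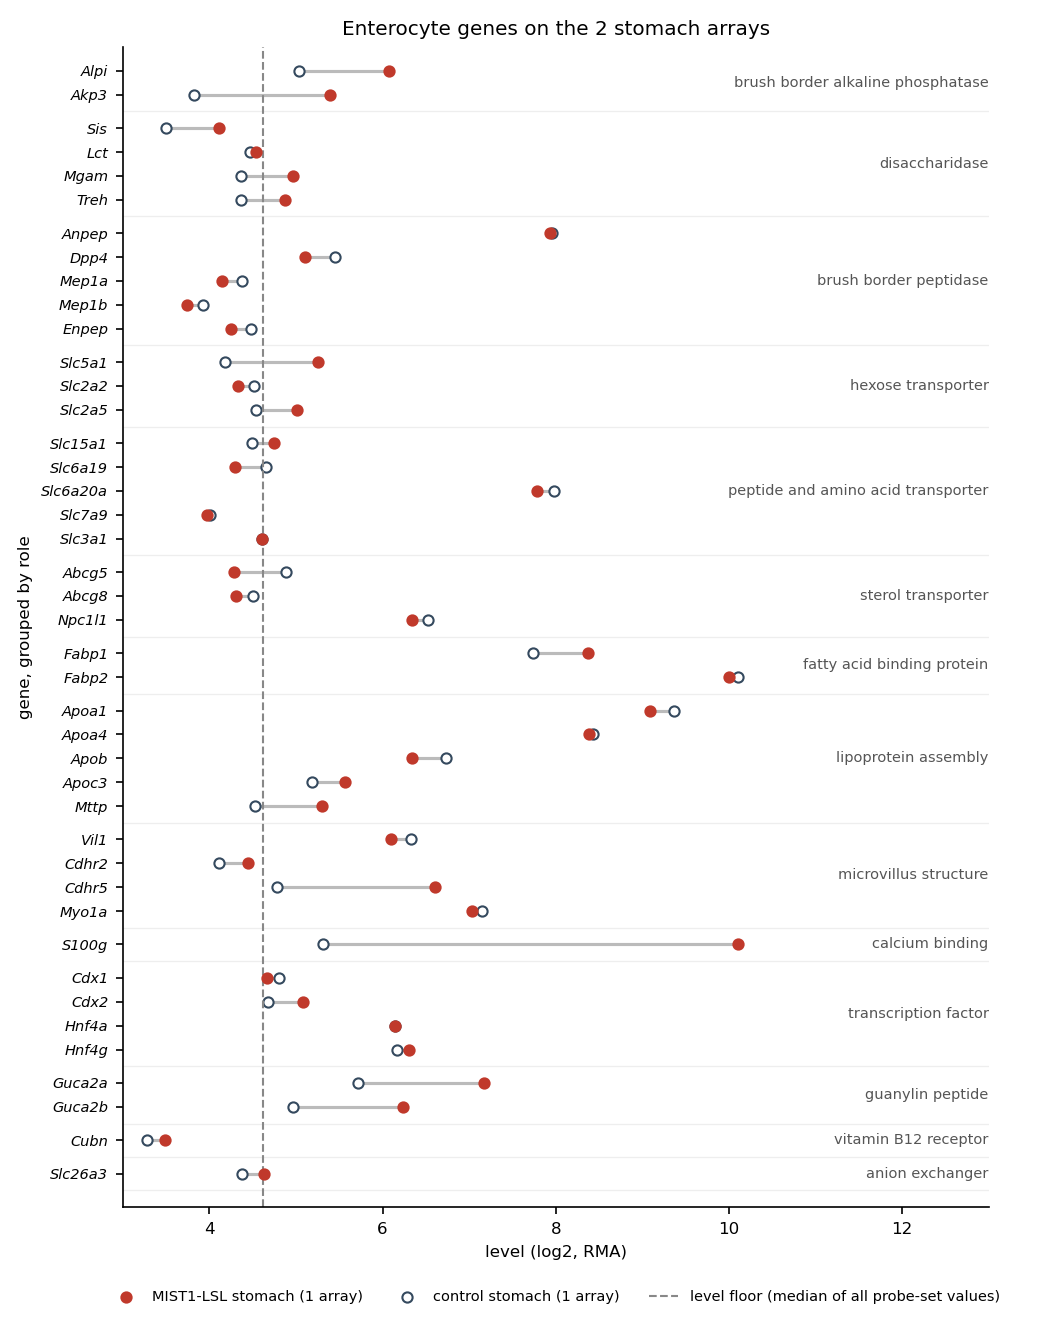
Level of each of the 42 enterocyte genes (log2, RMA; horizontal axis), grouped by role, in the MIST1-LSL stomach (filled) and the control stomach (open), 1 array each; the dashed line is the level floor of 4.62. S100g has the longest bar, at 10.10 in MIST1-LSL and 5.31 in control, while Fabp2, Apoa4 and Anpep nearly coincide on the 2 arrays.

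Promoter sequences are shown for the neighbouring pairs of 2-fold members, Alpi with Akp3 and Guca2a with Guca2b, and for S100g, which had the largest difference. They are the 200 bases before each gene's start in the RefSeq annotation of GRCm38.p6, written 5′ to 3′ on the gene's strand. Capitals mark matches on either strand. The letters searched were CTTTAT, with the variant form ATTTAT, for caudal-type factors such as CDX2. For the HNF4 type they were CAAAGTC and, as the other form searched, CAAAGGT. The HNF1 type was searched as GTTAAT and the TATA box as TATAAA.
Alpi, chr1:87101607-87101806, minus strand: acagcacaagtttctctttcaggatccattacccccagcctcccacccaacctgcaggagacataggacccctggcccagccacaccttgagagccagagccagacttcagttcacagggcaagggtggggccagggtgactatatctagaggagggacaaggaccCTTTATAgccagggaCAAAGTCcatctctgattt
Akp3, chr1:87124754-87124953, plus strand: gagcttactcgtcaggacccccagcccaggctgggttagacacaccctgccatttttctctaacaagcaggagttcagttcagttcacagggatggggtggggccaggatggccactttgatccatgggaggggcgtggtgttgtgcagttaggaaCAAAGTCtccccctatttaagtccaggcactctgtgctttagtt
Guca2a, chr4:119637532-119637731, plus strand: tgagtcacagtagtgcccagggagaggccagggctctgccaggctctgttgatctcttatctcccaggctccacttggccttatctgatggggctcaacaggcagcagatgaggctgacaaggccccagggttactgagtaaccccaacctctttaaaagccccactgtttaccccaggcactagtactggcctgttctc
Guca2b, chr4:119658946-119659145, minus strand: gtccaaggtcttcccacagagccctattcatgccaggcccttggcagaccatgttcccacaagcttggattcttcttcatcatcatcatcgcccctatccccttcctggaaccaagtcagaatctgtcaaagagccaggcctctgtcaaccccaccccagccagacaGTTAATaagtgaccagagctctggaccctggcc
S100g, chrX:162964600-162964799, minus strand: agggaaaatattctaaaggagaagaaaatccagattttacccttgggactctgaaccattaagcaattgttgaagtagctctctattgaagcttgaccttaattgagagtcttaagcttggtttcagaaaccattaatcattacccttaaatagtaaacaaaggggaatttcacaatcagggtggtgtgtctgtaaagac

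In the Alpi window CTTTAT began 34 bases before the start, where it overlaps TATAAA on the other strand, and CAAAGTC began 19 bases before it. The Akp3 window held CAAAGTC 44 bases before the start, and the Guca2b window GTTAAT 33 bases before it. None of these letters was found in the Guca2a and S100g windows, nor in those of Slc5a1 and Cdhr5, which says nothing of the factors themselves. Of the 42 members, 38 had an entry in the promoter table. Either form of the HNF4-type letters stood in 9 of these 38 windows, or 23.7%, against 5.67% of all 27025 gene promoters in the table. GTTAAT stood in 8, or 21.1%, against 5.09%, and TATAAA in 10, or 26.3%, against 10.6%. The caudal-type letters were found in 8 windows, or 21.1%, against 18.1%. Among the 7 promoters of the 2-fold members the HNF4-type letters were in 2, and each of the other 3 types in 1.

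S100g encodes calbindin-D9k, a small calcium-binding protein that ferries calcium across the enterocyte and whose gene is a classical target of the vitamin D receptor. It read 10.10 in the MIST1-LSL stomach and 5.31 in the control stomach, a difference of 4.80 or 27.8-fold. Both levels lay above the floor, and among the 15190 genes above it on both arrays only 3 had a larger difference, the acinar genes Reg1, Ctrb1 and Cpa1. Values of 3 further genes of calcium uptake and its control, picked after they were seen, are given beside it. Trpv6, the apical calcium channel, read 4.21 in MIST1-LSL, below the floor, and 4.78 in control. Atp2b1, the basolateral calcium pump, read 8.07 in MIST1-LSL and 8.50 in control. Vdr, the vitamin D receptor, read 4.91 in MIST1-LSL and 5.34 in control. Their differences were -0.58, -0.44 and -0.43, all within 2-fold.

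Within the S100 family, whose members are small calcium-binding proteins, S100g was not alone in exceeding 2-fold. S100a8, an alarmin of myeloid cells, read 6.72 in MIST1-LSL and 4.95 in control, and its partner S100a9 read 9.00 in MIST1-LSL and 7.49 in control. Like nearly all genes on the arrays, the remaining 14 of the 17 family genes were within 2-fold. The lowest was S100a10, an annexin partner, with a difference of -0.74. S100a6 and S100a11, with high readings on both arrays, differed by -0.0031 and -0.0077. The family median was 0.13.

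**Figure D2:**
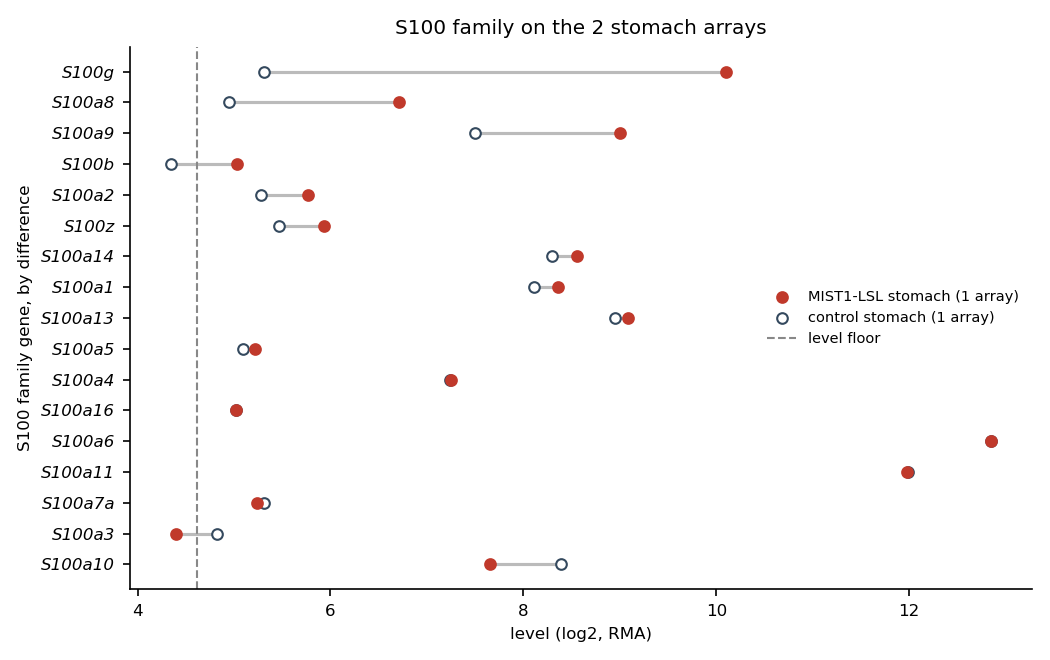
Level of the 17 S100 family genes (log2, RMA; horizontal axis) in the MIST1-LSL stomach (filled) and the control stomach (open), ordered by difference; the dashed line is the level floor. Only S100g, S100a8 and S100a9 are at least 2-fold higher in MIST1-LSL, and S100a6 and S100a11 coincide on the 2 arrays.

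The brush border alkaline phosphatases detoxify bacterial lipopolysaccharide and take part in fat absorption. Alpi read 6.08 in MIST1-LSL and 5.04 in control, a difference of 1.04 or 2.05-fold, with both levels above the floor. Akp3 read 5.40 in MIST1-LSL and 3.82 in control, a difference of 1.57 whose exact size is uncertain because the control level lay below the floor. The pair are direct neighbours on chromosome 1 and close relatives in sequence, so how signal divides between their probe sets is uncertain. Alpl, the tissue-nonspecific phosphatase of the same family, read 4.93 in MIST1-LSL and 5.03 in control, and Alppl2 was below the floor on both arrays.

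Guca2a and Guca2b encode guanylin and uroguanylin, peptides that act on the apical guanylate cyclase C receptor and drive chloride and fluid secretion. Guca2a read 7.17 in MIST1-LSL and 5.72 in control, a difference of 1.45. Guca2b read 6.24 in MIST1-LSL and 4.97 in control, a difference of 1.27. They are direct neighbours on chromosome 4, and all 4 levels were above the floor.

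The disaccharidases split sugars at the microvillus surface, and all 4 had positive differences at readings near or below the floor. Mgam, maltase-glucoamylase, read 4.97 in MIST1-LSL and 4.36 in control. Treh, trehalase, read 4.87 in MIST1-LSL and 4.37 in control. Sis, sucrase-isomaltase, read 4.12 in MIST1-LSL and 3.50 in control, both below the floor. Lct, lactase, was also below it on both arrays, at 4.53 in MIST1-LSL and 4.47 in control. All 4 disaccharidases read below the floor in control, and Mgam and Treh passed it on the MIST1-LSL array by less than 0.5.

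Brush border peptidases trim peptides before uptake, and the 5 had differences from -0.34 to -0.02. Anpep, aminopeptidase N, read 7.94 in MIST1-LSL and 7.96 in control, and its sign turned when the arrays were rescaled by quantile, median or loess, to differences of 0.0053 to 0.020. Dpp4, dipeptidyl peptidase 4, which also inactivates incretin hormones, read 5.11 in MIST1-LSL and 5.45 in control. Mep1a and Mep1b, the meprin subunits, and Enpep, glutamyl aminopeptidase, were below the floor on both arrays, with differences of -0.23, -0.19 and -0.23.

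The hexose transporters did not move as one. Slc5a1, the apical cotransporter SGLT1 for glucose and galactose, read 5.26 in MIST1-LSL and 4.18 in control, a difference of 1.08 from a control level below the floor. Slc2a5, the fructose transporter GLUT5, read 5.01 in MIST1-LSL and 4.54 in control. Slc2a2, the basolateral exit transporter GLUT2, was below the floor on both arrays, at 4.33 in MIST1-LSL and 4.52 in control. Of the 13 Slc5a family genes on the arrays 5 were above the floor on at least 1 array, and only Slc5a1 was at a 2-fold difference. Of the 12 Slc2a genes 8 were above the floor and none reached 2-fold. Nearly all genes above the floor were likewise within 2-fold (0.968% at least 2-fold higher and 0.473% lower).

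Peptide and amino acid transporters differed little. Slc15a1, the oligopeptide transporter PEPT1, read 4.75 in MIST1-LSL and 4.49 in control. Slc6a19, the main apical carrier of neutral amino acids, read 4.29 in MIST1-LSL and 4.66 in control. Slc6a20a, a proline carrier, read 7.79 in MIST1-LSL and 7.98 in control, and was the only one of the 5 above the floor on both arrays. Slc7a9 and Slc3a1, the light and heavy chains of the cystine carrier, were below the floor on both, with differences of -0.04 and 0.00.

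All 3 sterol transporters had negative differences, but only Npc1l1 was above the floor on both arrays. Abcg5, which pumps plant sterols back into the lumen as a dimer with Abcg8, read 4.29 in MIST1-LSL, below the floor, and 4.89 in control. Its difference of -0.60 was the lowest of the whole set, and its size is uncertain for that reason. Abcg8, its direct neighbour on chromosome 17, was below the floor on both arrays with a difference of -0.20. Npc1l1, the cholesterol uptake protein, read 6.34 in MIST1-LSL and 6.52 in control.

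Of the 7 genes of fatty acid handling and lipoprotein assembly, 6 were above the floor on both arrays, and Mttp on the MIST1-LSL array alone. Fabp2, the intestinal fatty acid binding protein, read 10.00 in MIST1-LSL and 10.10 in control. Apoa4, an apolipoprotein of chylomicrons, read 8.38 in MIST1-LSL and 8.43 in control, and Apoa1, of chylomicrons and high-density lipoprotein, read 9.09 in MIST1-LSL and 9.36 in control. Against these, Fabp1, the liver-type binding protein that enterocytes also use, read 8.37 in MIST1-LSL and 7.74 in control, a difference of 0.64. Mttp, which loads lipid onto apolipoprotein B, read 5.30 in MIST1-LSL and 4.52 in control, a difference of 0.77 whose size is uncertain because the control level lay below the floor, whereas Apob itself read 6.34 in MIST1-LSL and 6.74 in control. Apoc3, a lipoprotein lipase inhibitor, read 5.57 in MIST1-LSL and 5.18 in control. Apoa1, Apoc3 and Apoa4 lie side by side on chromosome 9 and had differences of -0.27, 0.39 and -0.04, so these 3 neighbours did not share a direction.

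Of the microvillus proteins only Cdhr5 stood apart. It read 6.60 in MIST1-LSL and 4.78 in control, a difference of 1.82 or 3.54-fold. Both levels were above the floor of 4.62, but Cdhr5 was close to it in control, so the exact size is uncertain. Its binding partner at the microvillus tip, Cdhr2, was below the floor on both arrays, at 4.45 in MIST1-LSL and 4.11 in control. Vil1, villin, which bundles the actin core, read 6.09 in MIST1-LSL and 6.33 in control. Myo1a, the motor that ties that core to the membrane, read 7.03 in MIST1-LSL and 7.15 in control.

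The intestinal transcription factors were close on the 2 arrays. Cdx2, which specifies intestinal identity, read 5.08 in MIST1-LSL and 4.67 in control, the largest difference of the 4 at 0.40. Its relative Cdx1 read 4.66 in MIST1-LSL and 4.80 in control. Hnf4a, a regulator of enterocyte lipid and brush border genes, read 6.15 on both arrays, exactly equal as deposited, as was the case for 1476 of 41345 probe sets, or 3.57%. Hnf4g read 6.30 in MIST1-LSL and 6.17 in control.

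The last members were Cubn, the intrinsic factor and vitamin B12 receptor of the ileum, and Slc26a3, the chloride and bicarbonate exchanger found mainly in the colon. Cubn was below the floor on both arrays, at 3.49 in MIST1-LSL and 3.28 in control. Slc26a3 read 4.63 in MIST1-LSL, barely above the floor, and 4.38 in control.

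Differences were also read against the control level. The 7 members at 7 or more on the control array (Fabp2, Apoa1, Apoa4, Slc6a20a, Anpep, Fabp1 and Myo1a) had differences from -0.27 to 0.64, and the 5 between 6 and 7 had differences from -0.40 to 0.13. Of the 30 members below 6 on the control array, 7 were at least 2-fold higher, with control levels between 3.82 and 5.72, and the other 23 were not. Only 19 of these 30 were above the floor on at least 1 array, which gives 7 of 19 under the filter of the next shares. Of the 19, 8 passed that filter only through the MIST1-LSL array, where they were higher, among them Akp3 and Slc5a1. The set was also chosen with its values known, so 7 of 19 beside the next shares does not measure an enrichment. Among all genes above the floor on at least 1 array, the share at least 2-fold higher was 1.20% where control was below 6, 0.572% between 6 and 7 and 0.696% at 7 or more. The control level enters the difference itself, so low control values tend to go with positive differences on any pair of arrays. The summed linear level of the 42 genes was 5343 in MIST1-LSL and 4116 in control, a ratio of 1.30. Without S100g the sums were 4242 in MIST1-LSL and 4076 in control, a ratio of 1.04.

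**Figure D3:**
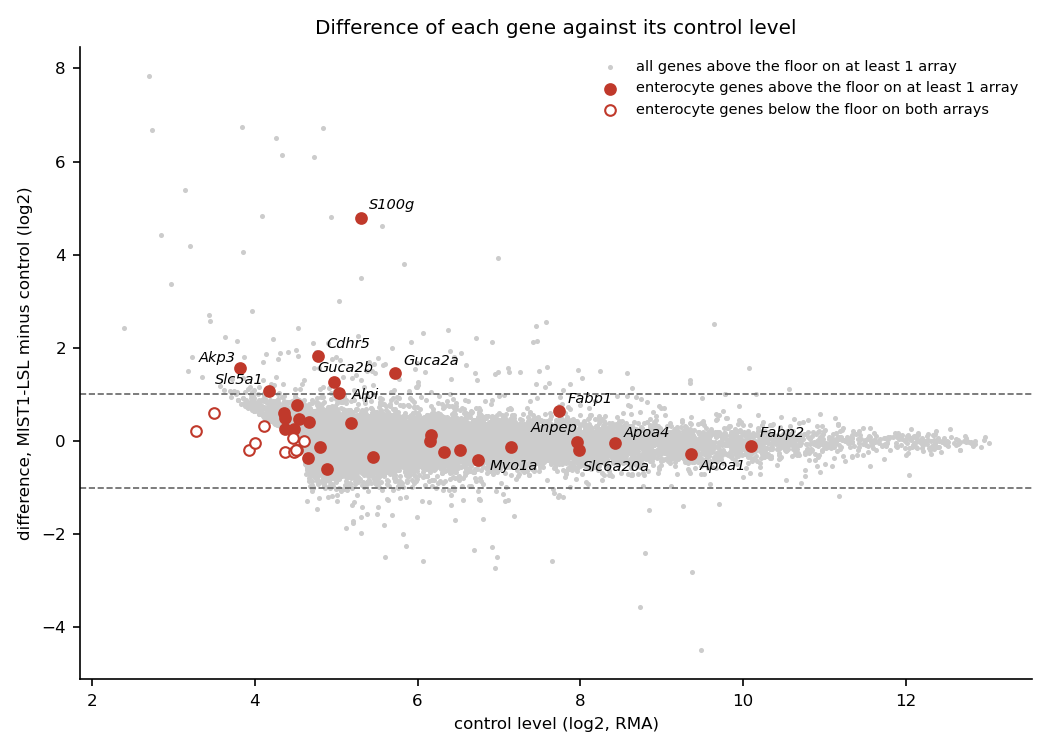
Difference of each gene (MIST1-LSL minus control, log2; vertical axis) against its control level (log2; horizontal axis) for all 17352 genes above the floor on at least 1 array (grey) and the 42 enterocyte genes (filled above the floor on at least 1 array, open below it on both); dashed lines mark a 2-fold difference. The 7 enterocyte genes above the upper line have control levels between 3.82 and 5.72, and those with control levels of 7 or more lie between the lines.

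A further list of small intestinal enterocyte genes outside the set was also written with earlier results known. Above the floor it held 2 genes at least 2-fold higher, and the others lay within 2-fold on both sides of 0. Of its 58 genes 57 were on the arrays and 44 above the floor on at least 1 array, of which 2 were at least 2-fold higher and none lower, and the median over the 57 was 0.04. Prap1, a proline-rich protein secreted by the upper small intestine and some other epithelia, read 7.52 in MIST1-LSL and 5.27 in control. Ada, adenosine deaminase, which is abundant in duodenal enterocytes and in forestomach, read 7.21 in MIST1-LSL and 6.01 in control. Lgals4, a lectin of gut epithelium, had the lowest difference at -0.71, and Plac8 and Gsta1, a glutathione transferase, differed by -0.01 and 0.03. Genes of brush border structure, such as the actin regulators and myosins of microvilli, had a median of -0.13 over 29 genes. None of the 26 above the floor on at least 1 array was past 2-fold in either direction, as was true of nearly all genes on the arrays. Vill, a villin relative, had the lowest difference, at -0.59, and Myo7b and Myo6, myosins of the microvillus, differed by -0.55 and -0.45.

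Among markers of the other intestinal cell types a few genes were far apart and most were not. Among 10 Paneth cell genes the alpha-defensins Defa17 and Defa24 read 8.05 and 5.94 in MIST1-LSL against 5.03 and 3.79 in control, while 5 of the 10, Ang4, Mmp7, Itln1, Pla2g2a and Mptx2, were below the floor on both arrays. Alpha-defensins are near-identical copies, so their individual levels are uncertain. The summed linear level of the list was 1120 in MIST1-LSL and 970 in control. Most of the control sum was Nupr1, which read 8.86 in MIST1-LSL and 9.32 in control (log2), so the sums do not measure the defensins. Of 11 goblet cell genes Zg16, which is also made by pancreatic acinar cells, read 9.42 in MIST1-LSL and 2.74 in control. Spink4 read 11.69 in MIST1-LSL and 10.57 in control, and the trefoil peptide Tff3 read 6.57 in MIST1-LSL and 5.68 in control. Muc2, the defining intestinal mucin, read 5.28 in MIST1-LSL and 5.24 in control. The goblet list summed to 9067 in MIST1-LSL and 7388 in control on the linear scale. Most of both goblet sums was Agr2, which read 12.20 in MIST1-LSL and 12.43 in control (log2). Intestinal stem cell genes summed to 1461 in MIST1-LSL and 1775 in control. Most of both stem cell sums was Slc12a2, which read 10.27 in MIST1-LSL and 10.60 in control (log2). Colon genes summed to 200.4 in MIST1-LSL and 212.2 in control, and genes of the duodenum and proximal intestine to 701 in MIST1-LSL and 649 in control. Gata4 and Gata6 made up most of both duodenum sums, at 7.30 and 8.24 in MIST1-LSL against 7.36 and 7.89 in control (log2). None of the genes on these 3 lists was past 2-fold, as was true of nearly all genes above the floor (0.968% at least 2-fold higher and 0.473% lower). The medians of the 3 lists were -0.06, -0.13 and -0.0080, and 6 of the 9 colon genes were below the floor on both arrays.

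The members with a second home in other organs were set beside markers of those organs. The pancreatic acinar list of 21 genes, 20 of them on the arrays, had 18 genes at least 2-fold higher in MIST1-LSL and a summed linear level of 23428 in MIST1-LSL and 6237 in control. Most of the control sum was Clps, colipase, which was within 2-fold, at 12.28 in MIST1-LSL and 12.41 in control (log2). Pancreatic and bile duct genes summed to 9753 in MIST1-LSL and 10509 in control, with none past 2-fold, as was true of nearly all genes on the arrays. Most of both duct sums was Tff2, which read 12.78 in MIST1-LSL and 12.84 in control (log2). Tff2 is also on the chief and gastric mucous list, so these sums do not measure duct cells. Hepatocyte genes, of which 13 of 15 were on the arrays, summed to 2377 in MIST1-LSL and 3344 in control. Most of that sum was Ttr, the carrier protein transthyretin, which read 11.03 in MIST1-LSL and 11.56 in control (log2), and the other 12 genes summed to 292.1 in MIST1-LSL and 331.7 in control. The hepatocyte median difference was 0.16 over the 13 genes, with 8 of the 13 above 0. Over the 8 hepatocyte genes above the floor on at least 1 array it was -0.19, with 4 above 0 and 4 below. Alb, albumin, read 5.24 in MIST1-LSL and 5.08 in control, and 5 of the 13 were below the floor on both arrays. Trf and Hp were at least 2-fold lower, as were 0.473% of all genes above the floor on at least 1 array. Trf read 5.25 in MIST1-LSL and 6.41 in control, both above the floor. Hp read 5.06 in control but lay below the floor in MIST1-LSL, so the size of its difference is uncertain. Genes of the kidney proximal tubule and nephron summed to 267.7 in MIST1-LSL and 270.7 in control, with none of the 11 past 2-fold, which few genes on the arrays were. Smooth muscle genes summed to 3857 in MIST1-LSL and 1581 in control, with 7 of 10 at least 2-fold higher. In a bulk sample, more cells of a type and more RNA per cell cannot be told apart.

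**Figure D4:**
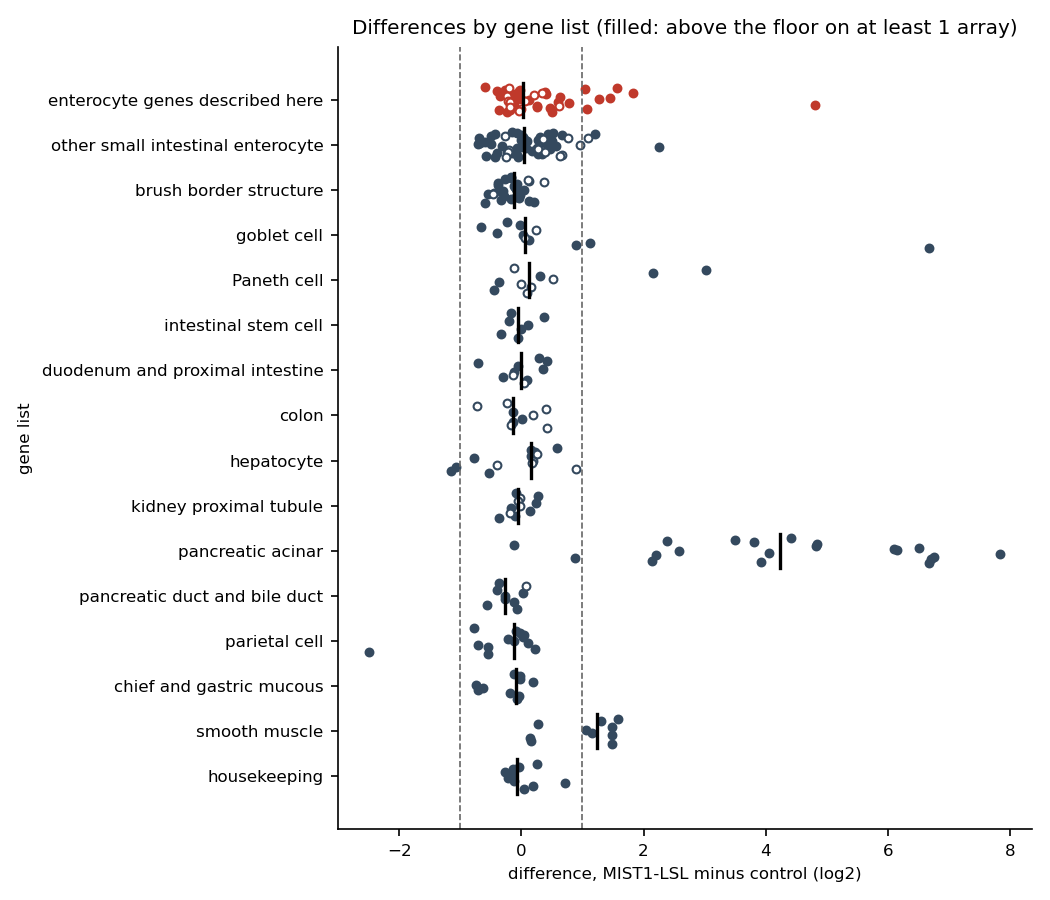
Difference of each gene (MIST1-LSL minus control, log2; horizontal axis) by gene list, with 1 point per gene (filled above the floor on at least 1 array, open below it on both); black bars are the medians over all genes of a list on the arrays, and dashed lines mark a 2-fold difference. The enterocyte genes centre near 0 with a tail of 7 higher genes, while 18 pancreatic acinar and 7 smooth muscle genes lie beyond 2-fold.

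The arrays themselves were alike. Their probe-set medians were 4.60 in MIST1-LSL and 4.64 in control, and their correlation r, taken across probe sets and so not across independent samples, was 0.971. Parietal, chief and gastric mucous, and housekeeping lists had medians of -0.13, -0.09 and -0.08. Among them 1 gene was past 2-fold, the parietal anion transporter Slc26a7, which was lower. Slc26a7 read 4.48 in MIST1-LSL, below the floor, and 6.97 in control, so the exact size of its difference is uncertain. Of all genes above the floor on at least 1 array, 0.473% were at least 2-fold lower. The parietal markers Atp4a and Atp4b read 11.43 and 12.11 in MIST1-LSL against 11.53 and 12.13 in control. The antral list of 5 genes had a median of -0.31, and its secreted protein Bpifb1 read 9.75 in MIST1-LSL and 8.24 in control. Both stomachs had high Xist, at 9.99 in MIST1-LSL and 10.75 in control, with 4 of 4 Y-linked genes below the floor on both arrays.

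The authors' deposited gene ontology tables bear on the same genes through their terms. In the authors' deposited table for a list named as the top of the MIST1-LSL stomach, 4390 of 22423 genes, or 19.6%, were in the list. The authors' deposited table counted 17 of 72 brush border genes in it, or 23.6%, 21 of 80 microvillus genes, or 26.25%, 13 of 60 brush border membrane genes, or 21.7%, 4 of 21 genes of intestinal absorption, or 19.0%, and 4 of 12 chylomicron genes, or 33.3%. In the authors' deposited table for a second list, whose selection is not stated, 20.5% of genes were in the list, as were 23.6% of brush border, 28.3% of brush border membrane, 11.25% of microvillus, 23.8% of intestinal absorption and 41.7% of chylomicron genes.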

How the data were processed

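Per the labels' protocols, total RNA of each of the 2 stomachs was amplified and labelled with biotin before array hybridisation. Per the submitters' processing notes RMA and Partek were used; of versions, settings or a genome build nothing is stated there. The deposited log2 levels cover 41345 probe sets. The authors' workbook also gives the linear intensity, the ratio of MIST1-LSL to control, a score-like column with the number of probes per probe set, and, in the deposited ontology tables, the percent of a term's genes in a list.

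Genes were named by the workbook's symbol column (32471 probe sets), and a gene with several probe sets was read from the one whose mean over both arrays was highest. No rescaling was applied. The floor was the median of all values and the size rule was 2-fold. Members and lists were chosen with earlier results of these data known. All members were named, and of other lists up to 3 genes with the largest difference and 2 with the highest level, together with relatives of members. Genes named outside that rule after their values were seen were Trpv6, Atp2b1, Vdr, Muc2, Ang4, Mmp7, Itln1, Pla2g2a, Mptx2, Alb, Ctrb1, Cpa1, Bhlha15, Xist, Cybrd1, Heph, Slc11a2 and Krt20. Promoter letters were searched in the 200 bases before the first RefSeq start listed per gene. Alternatives were 3 rescalings (quantile, median centring, loess with span 0.3), the series value table, 3 other floors, averaged or most different probe sets, at least 10 probes, updated names, and 1.5-fold and 3-fold rules. The procedure was tested on simulated data whose noise came from the SD between probe sets of a gene. Those data held no variation between mice, so they say nothing of how reliable the calls are. Python 3.11.15, numpy 2.4.6, pandas 2.3.3 and statsmodels 0.14.6 were used.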

Additional observations from a re-analysis of the deposited data

How the results depend on the processing

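The count of 7 members at least 2-fold higher was 7 under every rescaling, the series value table, no floor and updated names. It was also 7 under both other probe-set rules and the minimum of 10 probes. Those 3 settings could not change a member, because all 42 had a single probe set of at least 14 probes. The count came to 5 with the floor at the 75th percentile or required on both arrays, 10 under the 1.5-fold rule and 2 under the 3-fold rule, which left S100g and Cdhr5. The count of members lower was 0 throughout except for 1 (Abcg5) under the 1.5-fold rule. The median of the members above the floor was 0.25, and -0.019 when that floor was raised to the 75th percentile or required on both arrays, because members with low levels then drop out. The share of all genes higher was 1.49% with the floor at the 75th percentile, 3.49% under the 1.5-fold rule and 0.386% under the 3-fold rule. The share lower was 0.25% with both arrays above the floor, 3.33% under the 1.5-fold rule and 0.138% under the 3-fold rule. Of 336 recomputed member differences all 336 moved by less than 0.23, which is the SD of differences among probe sets of a gene (384 genes with 2 each), and the largest shift was 0.04. That SD measures probe behaviour and not variation between mice. The 336 differences include those under the 3 settings that could not change a member, so they overstate how much was put to the test. No paired analysis was possible because each genotype had 1 array. Signal over background was not measured, so levels near the floor of 4.62 have no reliable order.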

Other observations

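Relatives of the described genes gave further values. Among 9 fatty acid binding protein genes none was past 2-fold, as was true of nearly all genes on the arrays. The ileal bile acid binding protein Fabp6 read 5.35 in MIST1-LSL and 4.85 in control, and the adipocyte protein Fabp4 read 9.81 in MIST1-LSL and 10.70 in control. In the Slc5a family the lowest difference was that of Slc5a5, the sodium-iodide symporter, which read 6.31 in MIST1-LSL and 6.98 in control. Slc2a1, the widely used glucose transporter GLUT1, read 7.74 in MIST1-LSL and 7.72 in control, and the lowest difference among the Slc2a genes was that of Slc2a8, which read 5.20 in MIST1-LSL and 5.76 in control. Cdx4, the third caudal gene, was below the floor on both arrays.

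Iron uptake transcripts lay on both sides of 0. Cybrd1, a duodenal iron reductase, read 7.80 in MIST1-LSL and 8.49 in control, and the iron oxidase Heph read 4.43 in MIST1-LSL and 5.03 in control, whereas the iron importer Slc11a2 read 5.41 in MIST1-LSL and 4.94 in control. Krt20, a keratin of differentiated gut surface cells, read 9.40 in MIST1-LSL and 10.08 in control. These 4 genes were picked after their values were seen, and no difference was past 2-fold.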
